A study of Mus musculus with 16 samples.

Results

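The genes of GABA synthesis and of the main cortical interneuron subtypes were followed in the adult medial prefrontal cortex (mPFC) of Arid1b-mutant mice given fluoxetine or vehicle in early life. The set was chosen by gene function, since loss of Arid1b has been reported to reduce interneurons. It holds 10 genes (Gad1, Gad2, Slc32a1, Pvalb, Sst, Vip, Npy, Lhx6, Reln and Lamp5) of the 18424 in the table, and all 10 passed the filter on low values in each comparison. The mice were 16 males on the C57BL/6N strain, aged 120 days, with 1 sample per mouse. WT mice came from the same crosses of heterozygous males with WT females as the mutants, and HT mice carried 1 copy of C57BL/6N-Arid1b em1Tcp, a CRISPR deletion around exon 5 in every cell type. Fluoxetine hydrochloride (Flx), a serotonin reuptake inhibitor, was given to the dams at 0.1 mg/ml in water with 0.2% saccharin from postnatal day 3 to 21, so that pups took it up only through milk. Vehicle (Veh) dams drank the saccharin water alone. Genotype and treatment gave 4 groups of 4 mice, named HT-Veh, HT-Flx, WT-Veh and WT-Flx, and no drug was given after weaning.

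GABA is the main inhibitory transmitter of the cortex. It is made from glutamate by the decarboxylases Gad1 and Gad2 and loaded into vesicles by the transporter Slc32a1. Cortical interneurons are commonly divided by what they express. Pvalb, a calcium-binding protein, marks fast-spiking basket and chandelier cells, Sst marks dendrite-targeting cells, the neuropeptide Vip marks cells that inhibit other interneurons, and Npy, Reln and Lamp5 are found in neurogliaform and related cells, with Npy and Reln also present in many Sst cells. Lhx6 is a transcription factor kept on in Pvalb and Sst cells. The olfactory bulb, which lies in front of the prefrontal cortex, is also rich in GABA neurons.

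On GRCm38 (GENCODE) all 10 are protein-coding. Gad2 lies at chr2:22622205-22693874, Gad1 at chr2:70553072-70602014, Slc32a1 at chr2:158610767-158615748, Lamp5 at chr2:136052239-136069917 and Lhx6, on the minus strand, at chr2:36081953-36105408. Pvalb lies at chr15:78191114-78206400, Sst at chr16:23889573-23890958 and Reln at chr5:21884454-22344702, all on the minus strand. Vip lies at chr10:5639218-5647617 and Npy at chr6:49822710-49829507.

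The promoters of Pvalb, Npy and Sst are shown for their changes in vehicle-treated mutants, given further on. With mice high in the olfactory bulb gene Eomes set aside, these changes were the most negative among the subtype genes. Each window runs from 250 bases before to 50 bases after the RefSeq start (GRCm38.p6), 5′ to 3′ on the gene's strand. Capitals mark matches, on either strand, to the cAMP response element TGACGTCA, the TATA box TATAAA or the CCAAT box CCAAT, none of which overlapped another.
Pvalb, chr15:78206351-78206650, minus strand: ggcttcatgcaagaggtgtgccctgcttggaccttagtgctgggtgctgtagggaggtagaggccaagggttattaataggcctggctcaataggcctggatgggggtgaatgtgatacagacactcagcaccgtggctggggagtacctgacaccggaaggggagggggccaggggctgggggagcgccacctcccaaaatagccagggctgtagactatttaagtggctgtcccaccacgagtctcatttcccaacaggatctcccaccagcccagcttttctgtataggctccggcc
Npy, chr6:49822460-49822759, plus strand: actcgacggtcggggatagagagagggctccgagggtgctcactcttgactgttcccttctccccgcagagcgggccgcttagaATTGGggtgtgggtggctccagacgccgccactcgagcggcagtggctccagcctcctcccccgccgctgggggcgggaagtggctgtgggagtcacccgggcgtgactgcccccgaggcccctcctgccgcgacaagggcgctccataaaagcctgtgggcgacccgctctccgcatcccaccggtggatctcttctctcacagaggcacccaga
Sst, chr16:23890795-23891094, minus strand: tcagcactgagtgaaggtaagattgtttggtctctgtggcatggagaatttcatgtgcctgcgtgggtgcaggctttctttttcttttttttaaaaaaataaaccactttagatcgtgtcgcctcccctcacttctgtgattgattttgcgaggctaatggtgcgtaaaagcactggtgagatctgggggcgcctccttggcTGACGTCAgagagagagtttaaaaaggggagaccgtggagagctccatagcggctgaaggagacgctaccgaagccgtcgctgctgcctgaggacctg
The Sst window held 1 TGACGTCA, which was present in 1.79% of 32841 RefSeq mouse windows of this length. The Npy window held 1 CCAAT, on the opposite strand, a motif in 37.4% of windows. TATAAA, in 13.6% of windows, was in none of the 3 shown. Over all 10 members 1 window held TGACGTCA, 2 (Gad1 and Vip) TATAAA and 4 (Gad2, Npy, Lhx6 and Lamp5) CCAAT. A match is only a match of letters, and the Pvalb window held none of the 3 motifs.

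Values are normalized read counts deposited by the authors. Their totals per mouse ran from 26718751 to 29902419, and the depth of the reads behind them is unknown. Arid1b was 1787 to 2831 in the 8 WT mice and 1545 to 2005 in the 8 HT mice, so the genotypes overlapped when all mice were counted. A list of 10 cortical projection neuron genes was detected in full, with sums of 48079 to 68392. Eomes, which marks the projection neurons of the bulb in the adult, was over 100 in 5 mice: 899 in WT-Veh 1, 149, 318 and 857 in WT-Flx 1, 2 and 4, and 240 in HT-Veh 4. In the other 11 mice it ran from a listed 0 to 25.3. The 5 mice are called bulb-rich below. Bulb RNA is inferred from Eomes and other marker genes, since the sample titles name only the PFC and record no bulb tissue. Among those 11 mice Arid1b was 2255 to 2831 in WT and 1545 to 2005 in HT, without overlap. The sum of the 4 bulb projection neuron genes (Eomes, Cdhr1, Tbx21 and Doc2g) ranged from 164 to 7278 in WT-Veh, 257 to 5492 in WT-Flx, 187 to 2213 in HT-Veh and 151 to 224 in HT-Flx. HT-Veh 4 also had the highest sum of 10 striatal projection neuron genes, 23846 against at most 15564 in any other mouse. The main genotype results are therefore also given with log2 Eomes as a covariate or without these mice. The covariate takes log2 values to change in a straight line with log2 Eomes, which was not tested. In bulk tissue, fewer cells of a type and less RNA per cell cannot be told apart. In younger adults of this line, the authors reported normal numbers of parvalbumin-stained neurons in upper layers of the prelimbic mPFC. They also reported normal inhibitory currents and inhibitory synapse numbers there. That cell count used protein staining and other mice than these.

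Per kilobase of the longest coding transcript, the only scale used to compare genes, the highest level over the 16 mice was that of Sst, 5066 ± 816 (SD, n = 16) normalized counts per kb. Npy followed at 3864 ± 602, then Gad1 at 2596 ± 1106 and Lamp5 at 2540 ± 423. Gad2, Pvalb, Vip and Slc32a1 formed a middle range between 837 and 571 counts per kb, and Reln (195 ± 62.3) and Lhx6 (142 ± 27.4) were lowest. Neighbours in this order had overlapping ranges over the mice, except between Lamp5 and Gad2 and between Slc32a1 and Reln. With the union of all exons as the length, Lamp5 passed Gad1, Slc32a1 passed Vip and Lhx6 passed Reln.

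The bulb-rich vehicle mice, WT-Veh 1 and HT-Veh 4, lay outside the range of their group's other mice for most members. Each was set against only 3 mice, so lying outside their range is common by chance. Gad1 in WT-Veh 1 was 19576 against 7261 to 8208 in the other 3 WT-Veh mice, and in HT-Veh 4 it was 9826 against 6091 to 6676. Gad1 was thus 2.57 and 1.53 times the mean of the group's other mice. In WT-Veh 1, Reln was 2.28, Slc32a1 1.55 and Gad2 1.27 times that mean, whereas Lhx6 was 0.523 and Pvalb 0.728 times it. In HT-Veh 4 the ratios were 1.46 for Reln, 1.35 for Slc32a1, 1.24 for Gad2 and 0.704 for Pvalb, while Lhx6, at 0.924, lay within the range of the other mice. Gad1, Gad2, Slc32a1 and Reln were thus above, and Pvalb below, all other mice of the group in both bulb-rich vehicle mice. The striatal marker Drd2 was 7.67 times the mean of the others in HT-Veh 4 and 0.164 times it in WT-Veh 1. Striatal projection neurons are GABA neurons too, so bulb and striatal RNA cannot be told apart in HT-Veh 4. Sst lay within the other mice's range in both. The bulb-rich WT-Flx mice were not alike. WT-Flx 4 had its group's highest Gad2 (6401) and lowest Lhx6 (331). WT-Flx 1 had the lowest Gad2 of all mice (3829) and its group's highest Lhx6 (469), and WT-Flx 2 lay between them for both genes.

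**Figure D1:**
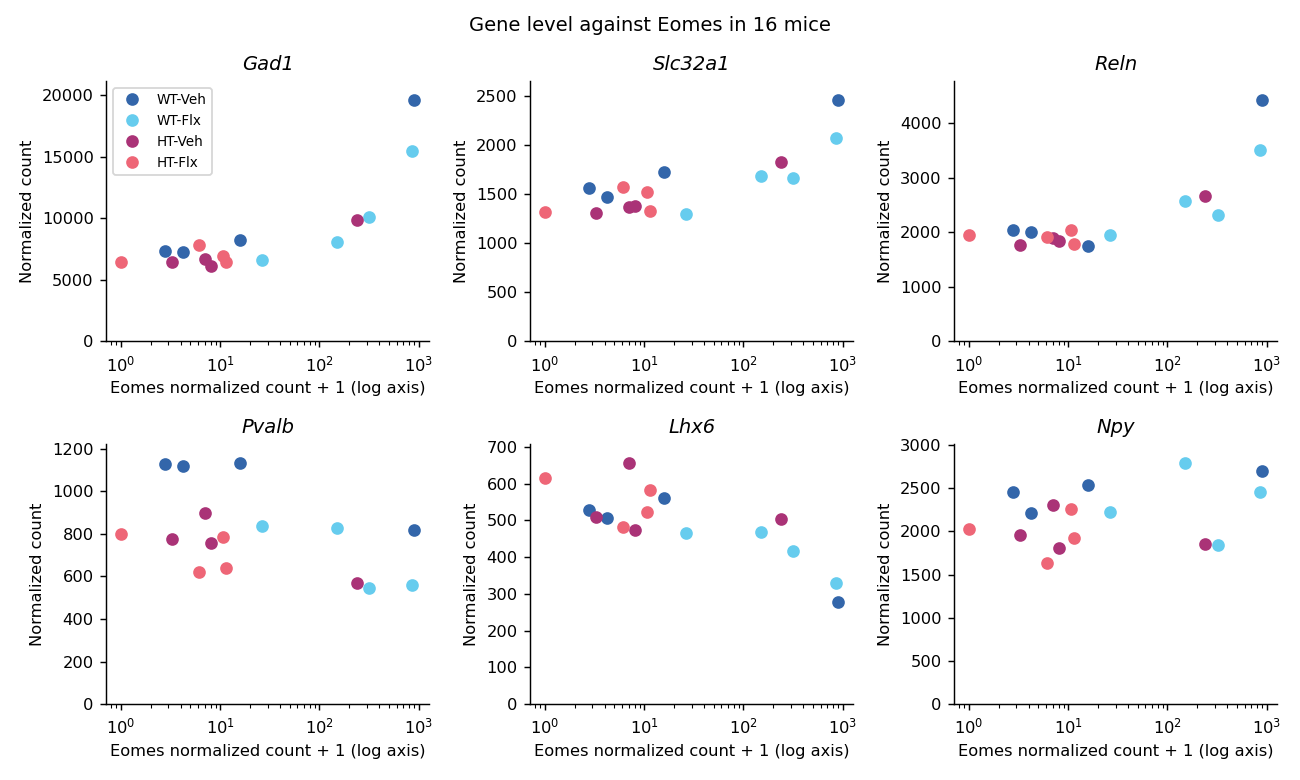
Normalized count of 6 of the genes (vertical axis) against the Eomes normalized count plus 1 (horizontal axis, log scale) in the 16 mice, coloured by group. The 2 mice with the most Eomes, WT-Veh 1 (899) and WT-Flx 4 (857), have the 2 highest values of Gad1 (19576 and 15487), Slc32a1 and Reln and the 2 lowest of Lhx6 (278 and 331).

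The first comparison asked how the mutation affected these genes without drug, in HT-Veh against WT-Veh. No member passed an adjusted p of 0.05 (limma, Benjamini-Hochberg over 16832 genes, of which 0.0178% passed). At an unadjusted p under 0.05, 2 of 10 members passed, Pvalb and Npy, both lower in HT-Veh. The share over all genes was 4.88%, or 2.26% for lower values. In all, 7 of 10 members had a lower mean log2 value in HT-Veh, beside 48.2% of all genes. Their median log2 change was -0.24, beside 0.01 over all genes. The members were measured in the same mice, so their signs are not independent, here or in the other comparisons. Without WT-Veh 1 alone the median was -0.11 with 6 lower, and without both bulb-rich vehicle mice, WT-Veh 1 and HT-Veh 4, it was -0.18 with 7 lower.

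Among the subtype genes, Pvalb was 819, 1126, 1132 and 1117 in WT-Veh mice 1 to 4 and 758, 775, 900 and 571 in HT-Veh mice 1 to 4. The 3 WT-Veh mice with little Eomes were within a narrow band above every HT-Veh mouse, and the bulb-rich WT-Veh 1 fell inside the HT-Veh range. The mean in HT-Veh was 71.3% of that in WT-Veh on the log scale, a log2 change of -0.49 (SE 0.15, adjusted p = 0.899, limma). An exact permutation test over the 8 mice gave p = 0.0571 (two-sided), where 4 against 4 mice can give no less than 0.0286. Leaving out WT-Veh 1 and HT-Veh 4 gave -0.48 (SE 0.077, adjusted p = 0.0629), and log2 Eomes as a covariate gave -0.52 (adjusted p = 0.0649). These missed the threshold, which 11 and 13 genes in all passed in these fits.

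Npy, a neuropeptide of neurogliaform and many Sst cells, was 2702, 2456, 2540 and 2208 in WT-Veh and 1812, 1958, 2304 and 1855 in HT-Veh. Only HT-Veh 3 overlapped the WT-Veh range. The log2 change was -0.32 (SE 0.093, adjusted p = 0.872, limma), with an exact permutation p of 0.0571. Without the 2 bulb-rich mice it was -0.25 (adjusted p = 0.337).

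Sst was 3903, 4081, 3829 and 3869 in WT-Veh and 3151, 3189, 3965 and 3646 in HT-Veh. The WT-Veh mice were close together and 3 of 4 HT-Veh mice were below them, for a log2 change of -0.17 (SE 0.082, adjusted p = 0.922, limma), which was -0.20 (adjusted p = 0.415) without the bulb-rich mice. With those mice set aside and log2 Drd2, a striatal marker, as a covariate, Sst was at -0.37 (adjusted p = 0.27) and Pvalb at -0.59 (adjusted p = 0.098). In the mice left, Drd2 was 131 to 322 in WT-Veh and 36.6 to 141 in HT-Veh. Drd2 and genotype were thus hard to separate in this fit, and its values are not read as larger changes.

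Lamp5, a lysosome-associated membrane protein of neurogliaform cells, was 5390 to 6071 in WT-Veh and 3960 to 5912 in HT-Veh. Its log2 change was -0.25 (SE 0.11, adjusted p = 0.922, limma), and -0.16 without the bulb-rich mice. Vip was 1118 to 1278 in WT-Veh and 1054 to 1326 in HT-Veh. The 95% interval of its log2 change, 0.00, was -0.19 to 0.20.

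Of the synthesis and loading genes, Gad1 was 19576, 7369, 8208 and 7261 in WT-Veh and 6091, 6464, 6676 and 9826 in HT-Veh. Outside the 2 bulb-rich mice, every HT-Veh value was below every WT-Veh value. With all 8 mice the log2 change was -0.43 (SE 0.30, adjusted p = 0.922, limma). Without those 2 it was -0.25 (SE 0.058, adjusted p = 0.154), but without WT-Veh 1 alone it was -0.09 (adjusted p = 0.929).

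Slc32a1 was 2457, 1564, 1726 and 1471 in WT-Veh and 1377, 1304, 1368 and 1824 in HT-Veh, with the same arrangement as Gad1. Its log2 change was -0.28 with all mice (SE 0.16, adjusted p = 0.922, limma) and -0.23 without the bulb-rich pair (SE 0.069, adjusted p = 0.272). Without WT-Veh 1 alone it was -0.12 (adjusted p = 0.86), and without the pair and with Drd2 in the fit it was -0.14 (adjusted p = 0.705). The limit of the Drd2 fit given for Sst applies here too. Gad2 was 5590, 4342, 4477 and 4383 in WT-Veh and 4558, 4601, 4560 and 5672 in HT-Veh. Among the mice with little Eomes all HT-Veh values of Gad2 were above those in WT-Veh, although the log2 change was only 0.06 (95% interval -0.04 to 0.15).

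Reln, a secreted glycoprotein of layer 1 and other interneurons and of bulb projection neurons, was 4419, 2040, 1757 and 2010 in WT-Veh and 1845, 1759, 1902 and 2673 in HT-Veh. Its log2 change of -0.24 (SE 0.26, adjusted p = 0.924, limma) was -0.07 without the bulb-rich mice. Lhx6 was 278, 528, 560 and 506 in WT-Veh and 474, 508, 656 and 505 in HT-Veh. The log2 change of 0.23 (SE 0.21, adjusted p = 0.922, limma) was 0.03 without the bulb-rich mice (95% interval -0.24 to 0.29).

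**Figure D2:**
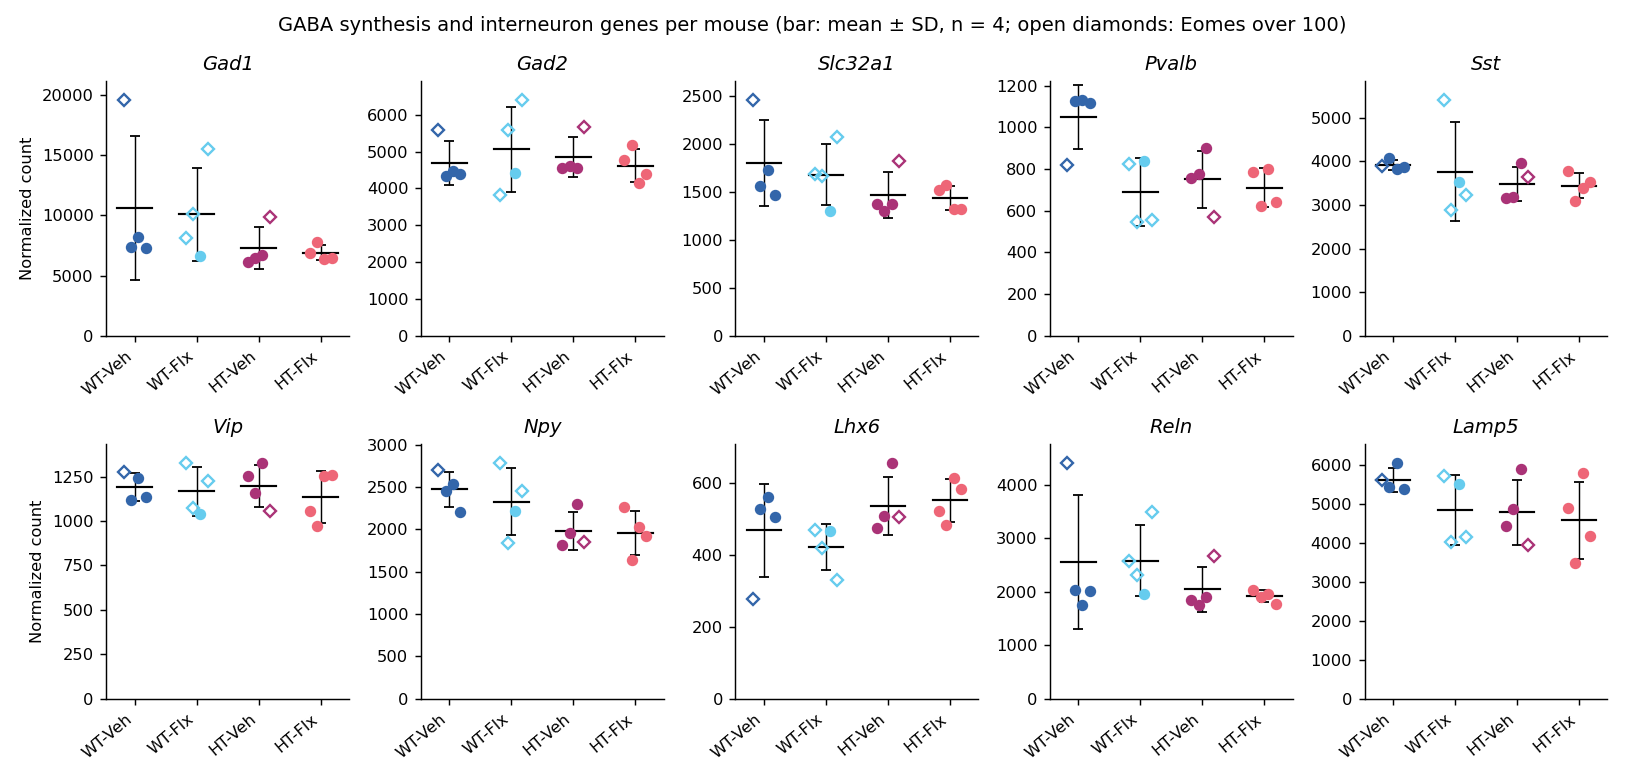
Normalized counts of the 10 genes in each of the 16 mice (vertical axes from 0), by group, with the group mean and SD (n = 4). Open diamonds are the 5 mice with Eomes over 100. Pvalb is 1117 to 1132 in the 3 filled WT-Veh mice and at most 900 in every mouse of the other groups.

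The second comparison asked how genotype mattered after fluoxetine, in HT-Flx against WT-Flx. No member passed the adjusted threshold (limma, 0.0417% of 16788 genes passed). At an unadjusted p under 0.05, 3 of 10 members passed, beside 10.4% of all genes: Gad1 and Reln were lower and Lhx6 higher in HT-Flx. Here 3 of 4 WT-Flx mice and no HT-Flx mouse had Eomes over 100, so bulb RNA and genotype could not be told apart except through WT-Flx 3. With Eomes as a covariate only Lamp5 passed unadjusted. Across all settings tried 279 to 2241 of all genes passed, which does not give the share in the covariate fit. In the main fit 8 of 10 members were lower in HT-Flx, beside 48.4% of all genes, and in the covariate fit 5 of 10.

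Gad1 was 8111, 10093, 6623 and 15487 in WT-Flx and 6907, 7788, 6413 and 6456 in HT-Flx. WT-Flx 3, the mouse with little Eomes, lay inside the HT-Flx range. The log2 change of -0.48 (SE 0.20, adjusted p = 0.454, limma) became 0.31 (SE 0.27, adjusted p = 1.00) with Eomes as a covariate. Reln was 2577, 2313, 1951 and 3500 in WT-Flx and 2037, 1905, 1955 and 1778 in HT-Flx. Its log2 change of -0.40 (SE 0.15, adjusted p = 0.397, limma) became 0.05 with the covariate.

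Lhx6 was 469, 418, 466 and 331 in WT-Flx and 523, 483, 615 and 584 in HT-Flx. The groups did not overlap, with a log2 change of 0.40 (SE 0.14, adjusted p = 0.381, limma) and the smallest exact permutation p that 4 against 4 mice allow, 0.0286. With Eomes as a covariate it was 0.01 (SE 0.23). Pvalb was 826, 545, 838 and 558 in WT-Flx and 786, 622, 799 and 640 in HT-Flx. The 2 WT-Flx mice with the lowest Pvalb were among the 3 bulb-rich ones, and the log2 change of 0.06 (95% interval -0.30 to 0.42) became -0.48 (SE 0.26, adjusted p = 1.00) with the covariate.

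Npy was 2790, 1842, 2222 and 2459 in WT-Flx and 2260, 1637, 2026 and 1919 in HT-Flx, a log2 change of -0.24 (SE 0.14, adjusted p = 0.541, limma), with -0.24 also under the covariate. Slc32a1 was 1683, 1664, 1297 and 2074 in WT-Flx and 1523, 1570, 1323 and 1325 in HT-Flx, and its log2 change went from -0.21 to 0.26 (SE 0.20, adjusted p = 1.00, limma) with the covariate. Sst was 5407, 2875, 3528 and 3236 in WT-Flx and 3775, 3079, 3393 and 3522 in HT-Flx, with WT-Flx 1 the highest of all 16 mice, and its log2 change was -0.09 without and -0.21 with the covariate. Gad2, Vip and Lamp5 overlapped between the groups, at 3829 to 6401 against 4144 to 5179, 1040 to 1330 against 974 to 1262 and 4018 to 5719 against 3476 to 5801. With the covariate Gad2 went from a log2 change of -0.11 to 0.34 (SE 0.24), Vip from -0.04 to -0.01 and Lamp5 from -0.09 to -0.62 (SE 0.25, adjusted p = 1.00, limma).

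The drug comparisons asked whether early fluoxetine left a mark on these genes in the adult. Within mutants (HT-Flx against HT-Veh) no member passed at an adjusted p of 0.05 or at an unadjusted p under 0.05 (limma). Over the 16814 genes tested, 0% passed adjusted and 3.07% unadjusted. The members' log2 changes lay between -0.08 and 0.05 with a median of -0.06, beside 0.00 over all genes. Of the 10, 9 were negative, beside 48.8% of all genes. That count rested on single mice. It was 4 with the Eomes covariate (median 0.010), 4 without the bulb-rich HT-Veh 4 (median 0.0087), 5 without HT-Veh 3 (median -0.0025) and 6 without HT-Flx 2 (median -0.0079). The intervals were wide against these values. For Pvalb, the 95% interval was -0.37 to 0.23, for Gad1 -0.34 to 0.23 and for Sst -0.21 to 0.18.

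Within WT mice (WT-Flx against WT-Veh) no member passed adjusted (limma, 0% of 16833 genes) and 1 of 10, Pvalb, passed unadjusted, beside 4.2% of all genes. Pvalb was 65.2% of its WT-Veh level in WT-Flx, a log2 change of -0.62 (SE 0.18, adjusted p = 1.00, limma) with an exact permutation p of 0.0857. WT-Flx 3, with an Eomes of 25.3, had a Pvalb of 838, below the 3 WT-Veh mice with little Eomes and inside the range of mutants. With Eomes as a covariate the change was -0.38 (adjusted p = 0.709). With only 1 WT-Flx mouse low in Eomes, the part of bulb RNA in this difference was not tested further. In the same covariate fit Gad1 was at -0.61 (adjusted p = 0.576) and Slc32a1 at -0.39 (adjusted p = 0.664), whereas without the covariate they were at -0.01 and -0.09. Gad1 was 8111 in WT-Flx 1, with an Eomes of 149, and 7261 to 8208 in the 3 WT-Veh mice with little Eomes. Whether a straight line in log2 Eomes suits Gad1 was not tested.

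The interaction, the fluoxetine change in HT minus that in WT, was tested over all 16 mice. No member passed adjusted (limma, 0% of 17567 genes) and 1 of 10, Pvalb, passed unadjusted, beside 4.29% of all genes. Its interaction was 0.55 on the log2 scale (SE 0.24, adjusted p = 0.998), with 0.19 (SE 0.18, adjusted p = 0.888) once Eomes entered the fit. In that fit 2 other members passed unadjusted, both higher. Across all settings tried 601 to 1684 of all genes passed, which does not give the share in the Eomes fit. Gad1 went from -0.04 to 0.67 (SE 0.21, adjusted p = 0.873, limma) and Slc32a1 from 0.07 to 0.47 (SE 0.13, adjusted p = 0.873). The Pvalb values of HT-Veh and of WT-Flx were both set against the same 4 WT-Veh mice, so these comparisons are not independent.

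Over both treatments the genotype was compared within each treatment and combined, with 8 WT and 8 HT mice. No member passed adjusted (limma, 0.0398% of 17567 genes passed). Unadjusted, 4 of 10 members passed, beside 11.9% of all genes. Gad1, Slc32a1 and Npy were lower in HT, beside 5.44% of all genes that were lower, and Lhx6 was higher. The members' median log2 change was -0.19, beside 0.00 over all genes. Of the 10, 9 were negative, beside 48.9% of all genes, and these signs are not independent. With Eomes as a covariate the median was -0.08 with 8 negative, and without the 5 mice with Eomes over 100 it was -0.12 with 7 negative.

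Npy stayed between -0.28 and -0.23 in these fits. Its log2 change was -0.28 (SE 0.085, adjusted p = 0.288, limma; exact permutation p = 0.0106), and it was -0.28 with Eomes as a covariate (adjusted p = 0.764) and -0.23 without the 5 mice with Eomes over 100 (adjusted p = 0.709). Pvalb moved the other way from Gad1 in the fits with Eomes or without the 5 mice. From -0.21 (SE 0.13, adjusted p = 0.508) it went to -0.45 (SE 0.093, adjusted p = 0.164) with Eomes and to -0.40 (SE 0.091, adjusted p = 0.27) without the 5 mice. In those 11 mice Pvalb was 838 to 1132 in 4 WT mice and 622 to 900 in 7 HT mice, and only WT-Flx 3 overlapped the mutants.

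Gad1 was at -0.46 (SE 0.19, adjusted p = 0.391, limma) with all mice, at -0.11 (adjusted p = 0.996) with Eomes and at -0.14 (adjusted p = 0.824) without the 5 mice. Slc32a1 was at -0.25 (adjusted p = 0.403, limma), -0.06 and -0.10 in the same fits. Lhx6 was at 0.31 (adjusted p = 0.391, limma), 0.12 and 0.10, and Reln at -0.32 (adjusted p = 0.436), -0.03 and -0.06. Lamp5 was at -0.17 (adjusted p = 0.519, limma), -0.27 (adjusted p = 0.885) and -0.21. Sst was at -0.13 (95% interval -0.34 to 0.07) and between -0.13 and -0.15 in these fits. Gad2 and Vip were at -0.03 (95% interval -0.23 to 0.17) and -0.02 (95% interval -0.17 to 0.14).

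**Figure D3:**
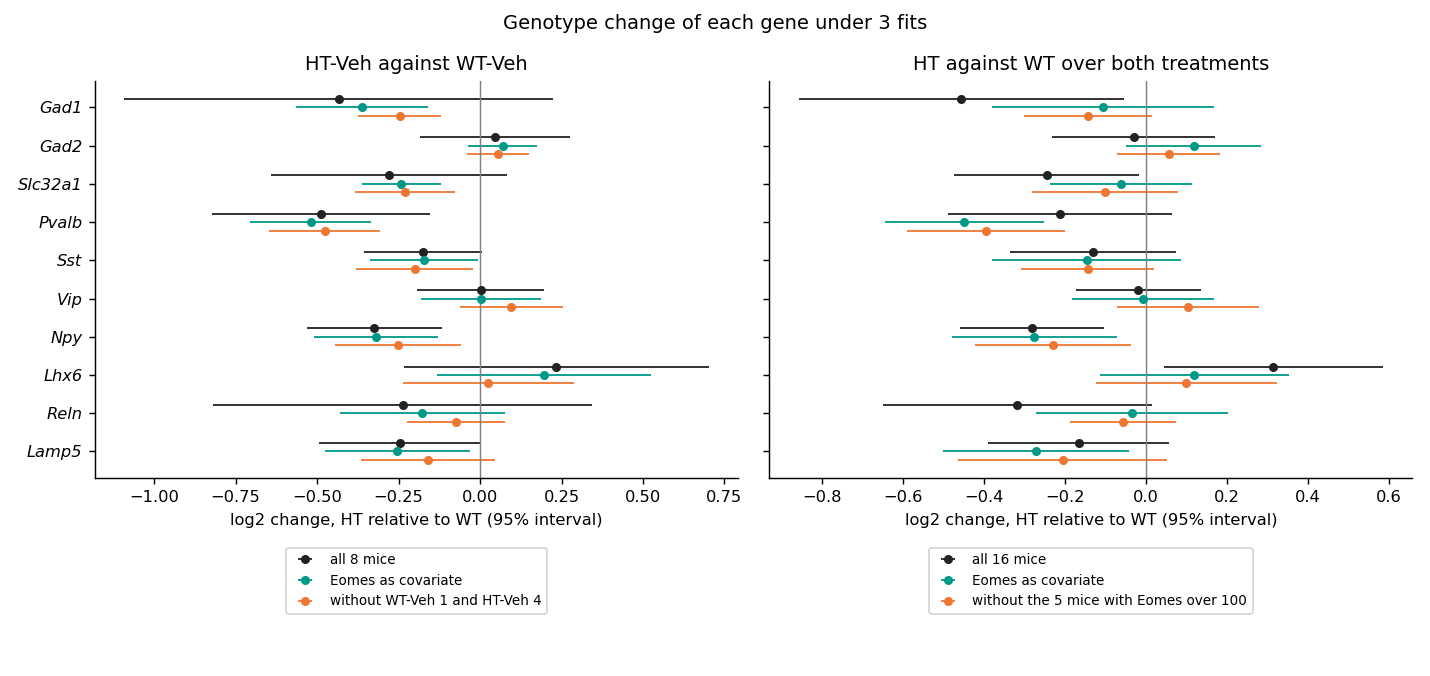
Log2 change of each gene in HT relative to WT (horizontal axis) with its 95% interval from limma, for vehicle mice (left) and over both treatments (right). Black points use all mice, green points add log2 Eomes as a covariate and orange points leave out the mice with Eomes over 100. Over both treatments Gad1 moves from -0.46 towards 0 while Pvalb moves from -0.21 to -0.45 and -0.40.

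Ratios within a mouse do not depend on a scaling factor common to its genes. The Gad1 to Gad2 ratio was 3.50, 1.70, 1.83 and 1.66 in WT-Veh, 2.12, 1.80, 1.50 and 2.42 in WT-Flx, 1.34, 1.40, 1.46 and 1.73 in HT-Veh and 1.44, 1.50, 1.55 and 1.47 in HT-Flx. The lower ratio in HT, by -0.43 on the log2 scale over both treatments, gave an exact permutation p of 0.0049 within treatments (adjusted p = 0.0098 over the 2 ratios tested). Without the 5 mice with Eomes over 100 it was -0.17 with an exact permutation p of 0.05, which is not below the threshold. In those mice the WT-Veh ratios of 1.66 to 1.83 were above the HT-Veh ratios of 1.34 to 1.46, and the single WT-Flx mouse, at 1.50, lay within HT-Flx.

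The Pvalb to Sst ratio did not pass, at -0.08 on the log2 scale over both treatments (exact permutation p = 0.565). Its log2 values were -2.25, -1.86, -1.76 and -1.79 in WT-Veh and -2.05, -2.04, -2.14 and -2.67 in HT-Veh. In both groups the bulb-rich mouse was the lowest, and the others of each genotype did not overlap. Without the 5 mice the difference was -0.24 with an exact permutation p of 0.02, a setting added after the data had been seen.

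**Figure D4:**
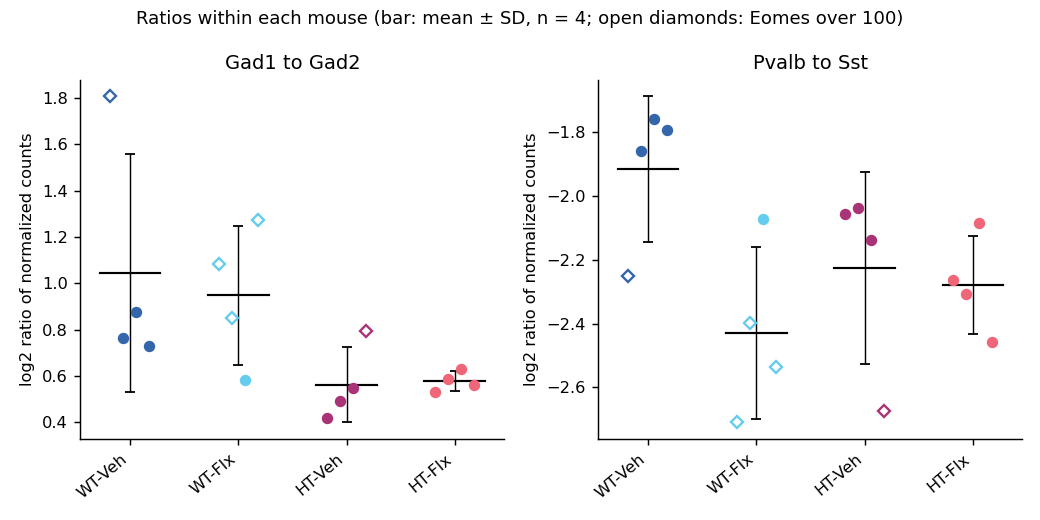
Log2 ratio of Gad1 to Gad2 (left) and of Pvalb to Sst (right) in each mouse by group, with mean and SD (n = 4). Open diamonds are mice with Eomes over 100. WT-Veh 1 has the highest Gad1 to Gad2 ratio (1.81) and HT-Veh 4 the lowest Pvalb to Sst ratio of its group (-2.67).

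The other genes of the pathway were read from a list of 44 (GABA uptake and breakdown, inhibitory synapse, interneuron transcription factors and further subtype genes), of which 43 were in the table. In HT-Veh against WT-Veh, 1 was lower and 2 were higher at an unadjusted p under 0.05, 3 of 43 beside 4.88% of all genes, and none passed adjusted (limma). Syt2, a synaptotagmin of Pvalb cell terminals, was at -0.49 (SE 0.22, adjusted p = 0.922), with 941, 1527, 1942 and 1683 in WT-Veh and 1070, 1132, 1260 and 785 in HT-Veh. Calb1, a calcium-binding protein, was at 0.37 (SE 0.059, adjusted p = 0.256), and Nos1, the neuronal nitric oxide synthase of some Sst and Npy cells, was at 0.55 (SE 0.12, adjusted p = 0.684). With Eomes as a covariate, a fit of this list added after the data had been seen, Syt2 was at -0.54 (adjusted p = 0.223) and Nos1 at 0.53 (adjusted p = 0.0649). Calb1 was at 0.37 (SE 0.051, adjusted p = 0.0365, limma), the 1 gene of the list that passed adjusted there. Bulk RNA does not show which cell type a change came from, for these or any other gene here.

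Over both treatments 8 of the 43 were lower and 5 higher unadjusted, 13 of 43 beside 11.9% of all genes and the 8 beside 5.44%, with none adjusted (limma). With the Eomes covariate 2 of the 43 were lower and 3 higher. Without the 5 mice 3 of the 43 were lower and 7 higher. Across all settings tried 885 to 2575 of all genes passed, which does not give the share in either of these fits. The 3 of the 43 with the smallest p in the main fit were Calb1 (0.25), Nos1 (0.46) and the cannabinoid receptor Cnr1 (0.22), all higher in HT. In the covariate fit they were at 0.25, 0.45 and 0.14, and without the 5 mice at 0.28, 0.55 and 0.19.

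In HT-Flx against WT-Flx 8 of the 43 were lower and 5 higher, 13 of 43 beside 10.4% of all genes (limma, unadjusted). The 3 with the smallest p were Dlx5 (-1.16), Dlx6 (-0.82) and Calb2 (-1.64), which are also expressed in bulb interneurons. A list of 10 bulb interneuron and neuroblast genes had all 10 lower in the same comparison, beside 48.4% of all genes. Its median log2 change was -0.79. Dlx1 (-1.14) and Dlx2 (-0.97) are in both lists, so the lists are not independent. The cause was not tested, since bulb RNA and genotype could not be told apart in this comparison. With Eomes as a covariate 1 of the 43 was lower and 1 higher. Across all settings tried 279 to 2241 of all genes passed, which does not give the share in the covariate fit. In the covariate fit Dlx5 was at 0.02, Dlx6 at -0.20 and Calb2 at 0.69 (SE 0.57, adjusted p = 1.00). Among the 11 mice with little Eomes, Dlx5 was 106 to 154 in 4 WT and 88.1 to 125 in 7 HT mice, Dlx6 was 87.9 to 137 and 58.8 to 151, and Calb2 was 162 to 249 and 251 to 337, so that Calb2 was higher in every HT mouse.

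Within WT mice 2 of 43, beside 4.2% of all genes, passed unadjusted (limma), Syt2 (-0.81) and Kcnc1 (-0.31), a potassium channel of fast-spiking cells, both lower in WT-Flx. With the Eomes covariate they were at -0.43 and -0.14, and neither passed. Within mutants 1 of 43, beside 3.07%, passed, Ndnf (-0.45), a neurogliaform cell gene that was at -0.47 with the covariate and then did not pass. In the interaction 3 of 43, beside 4.29%, passed, all higher: Syt2 (0.81), the inhibitory synapse adhesion protein Nlgn2 (0.19) and Kcnc1 (0.36). With the covariate these were at 0.34, 0.13 and 0.11, and none of them passed. Kcnc1 was 4948, 6584, 7059 and 6440 in WT-Veh and 4739, 4954, 5773 and 4655 in WT-Flx, so that, as for Pvalb, the bulb-rich WT-Veh 1 lay with the WT-Flx mice.

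The genes most like each member were sought over the 10 mice of WT-Veh, HT-Veh and HT-Flx with little Eomes, among 12498 genes with a mean of at least 100, by Pearson's r of log2 values. These r share the same 10 mice and are a description. Pvalb was most like Prkcb (0.97) and Mrpl42 (0.94), and Npy like Pcnt (0.96) and Pigh (0.95). Sst was most like Fam20a (0.92) and Npy (0.91), the 1 case in which a member ranked among the first 2 for another. Gad1 was most like Jagn1 (0.95) and 0610010K14Rik (0.95), Gad2 like Snx4 (0.98) and Frat1 (0.96) and Slc32a1 like Prpf38a (0.94) and Fbln5 (0.94). Lhx6 was most like Frmpd1 (0.95) and Sqor (0.94), Vip like Syne1 (0.94) and Calhm2 (0.93), Reln like Kif13a (0.90) and Fbxo8 (0.90) and Lamp5 like Sfswap (0.96) and Slc25a18 (0.95).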

How the data were processed

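RNA of the mPFC of 16 mice was sequenced as stranded poly-A libraries. The authors quantified transcripts with Salmon (1.1.0) on GRCm38 with GC bias correction, summarised them with tximport and normalized them in DESeq2 (1.30.1). The deposited signal is thus a normalized read count per gene, not a whole count, so no count test was used and low values have unknown depth. Groups came from the sample titles. Symbols were matched by Ensembl identifier for 18411 of 18424 genes. Comparisons used limma (3.58.1, R 4.3.3, intensity trend) on log2(value + 1), a scale that understates changes of low genes, for genes with at least 10 in 4 mice of the fit. Pairs used only their 2 groups, and the interaction and the genotype over both treatments used all mice. P-values are two-sided, with Benjamini-Hochberg adjustment over all genes tested. Members and both ratios were also tested by exact permutation. The fits were tested on simulated data with known changes. The members, lists and tests were chosen with earlier results of these data known. All members are named, with up to 3 other pathway genes per comparison by smallest unadjusted p, and 2 genes per member by correlation. Alternatives were a pseudocount of 8, no filter, quantile normalization, an Eomes covariate, a replicate block, all 4 groups in 1 fit, and leaving out each mouse or the bulb-rich vehicle pair. Leaving out all 5 mice with Eomes over 100, a Drd2 covariate, and the Eomes covariate for other pathway genes, were added after seeing the data. Nothing says which mice were littermates.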

Additional observations from a re-analysis of the deposited data

Results flagged for a closer look

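Dixon's test of the extreme mouse was applied to the 10 genes and both ratios in each group of 4 mice, 48 groups in all. Were these independent, chance alone would mark about 2.4. They share mice and genes, so the number marked cannot be weighed against 2.4. The test marked 10, and in all 10 the mouse was WT-Veh 1 or HT-Veh 4, the vehicle mice with Eomes over 100. In WT-Veh 1 these were Gad1 (19576), Gad2 (5590), Reln (4419), Pvalb (819, the only gene marked for being low) and the Gad1 to Gad2 log2 ratio (1.81). In HT-Veh 4 they were Gad1 (9826), Gad2 (5672), Slc32a1 (1824), Reln (2673) and the Pvalb to Sst log2 ratio (-2.67, marked as low). Sst, Vip, Npy, Lhx6 and Lamp5 were marked in no group. No interaction of a member passed the adjusted threshold.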

How the results depend on the processing

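In none of the alternatives did a member pass an adjusted p of 0.05 in any comparison (limma). The lowest adjusted p was 0.0629, for Pvalb in vehicle mice without WT-Veh 1 and HT-Veh 4. Over the alternatives 2 to 6 members passed unadjusted in HT-Veh against WT-Veh, where 554 to 1798 of all genes did. In HT-Flx against WT-Flx it was 0 to 4 members, beside 279 to 2241 of all genes. HT-Flx against HT-Veh had none, beside 328 to 939, and WT-Flx against WT-Veh had 1 to 4, beside 447 to 1714. Over both treatments it was 1 to 6, beside 885 to 2575, and in the interaction 0 to 2, beside 601 to 1684. Pvalb and Npy in vehicle mice stayed negative with unadjusted p under 0.05 in 17 of 17 alternatives, and Npy over both treatments in 23 of 23. The alternatives refit the same mice, for genes that had already passed unadjusted in the main fits, so these counts are not independent support. In vehicle mice the exact permutation p was 0.0571 for both genes.

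Over all members and alternatives the sign changed in 8 of 170 values in HT-Veh against WT-Veh, 18 of 150 in HT-Flx against WT-Flx, 26 of 150 in HT-Flx against HT-Veh, 19 of 150 in WT-Flx against WT-Veh, 10 of 230 over both treatments and 17 of 210 in the interaction (Gad1 became 0.67 with the Eomes covariate). Changes of sign in the genotype comparisons included the following (log2 scale, cause not tested unless the setting names it). In HT-Flx against WT-Flx with the Eomes covariate Gad1 was 0.31, Reln 0.047 and Pvalb -0.48, and with all 4 groups in that fit Gad1 was 0.31, Reln 0.21, Pvalb -0.33 and Lhx6 -0.0074. In vehicle mice Vip was -0.0061 after quantile normalization, and Lhx6 was -0.15 without the bulb-rich pair and with Drd2, a fit in which Drd2 and genotype were hard to separate. Over both treatments Gad2 was 0.12 with the Eomes covariate and 0.12 with Eomes and Drd2, and without the 5 mice Gad2 was 0.056 and Vip 0.10. Leaving out 1 mouse gave ranges of -0.048 to 0.062 for Vip, -0.031 to 0.13 for Gad2 and -0.38 to 0.061 for Reln in vehicle mice (Reln was positive only without WT-Veh 1), -0.042 to 0.16 for Pvalb in HT-Flx against WT-Flx, and -0.044 to 0.016 for Vip and -0.082 to 0.032 for Gad2 over both treatments. The Pvalb to Sst difference ranged from -0.14 to 0.0042, positive only without HT-Veh 4, and was -0.24 (exact p = 0.02) without the 5 mice. The Gad1 to Gad2 difference ranged from -0.49 to -0.30, with exact permutation p of at most 0.0143, and was -0.17 (exact p = 0.05) without the 5 mice.

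Deviations of same-numbered mice correlated over 0.1 in 1 of 4 pairs in both genotype comparisons and in HT-Flx against HT-Veh. Mean correlations there were 0.01, 0.03 and 0.03. In WT-Flx against WT-Veh 3 of 4 pairs were over 0.1, with a mean of 0.10 and a range of -0.20 to 0.31. With the replicate block, 0 members passed adjusted in each comparison. Unadjusted, 3 instead of 2 passed in vehicle mice and 4 instead of 3 in HT-Flx against WT-Flx. It was 2 instead of 1 in WT-Flx against WT-Veh and 6 instead of 4 over both treatments. The all-gene ranges given above include the block but do not give the share in the block fit itself. With the block, the Gad1 to Gad2 difference was -0.43 (exact permutation p = 0.0312) and the Pvalb to Sst difference was -0.08 (exact permutation p = 0.633). Read depth is not known, so no counting interval was given.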
